A study of Mus musculus with 5 samples.

Results

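The genes described are imprinted genes of the mouse outside the Meg3-Mirg region of chromosome 12, chosen from a list of 40 named genes, of which 37 were among the 16422 genes measured. Dlk1, Phlda2 and Asb4 had no row in the table and were not analysed here. The libraries are nuclear RNA-seq of retina from mice of the genotype Aldhl1l-Cre/Ert2+; NuTRAP+, in which tamoxifen had induced a Cre recombinase under the Aldh1l1 promoter, so that the NuTRAP reporter put a biotin tag on the nuclei of recombined cells. Both groups carry both transgenes and the same treatment. Each sample was 2 retinae under 1 animal number, from which undissociated tissue, mostly vessels, was spun out. The source is labelled retina, while the extraction text opens by naming brain, and all 8 rod markers looked for were measured. The Positive group holds nuclei captured on streptavidin beads (animals 12, 40 and 55, n = 3), which the series' design calls Müller glia, and the Input group holds nuclei of the whole retina set aside before capture (animals 40 and 55, n = 2). The age of the animals is not given in the sources used here, and the Aldh1l1 promoter is also active in astrocytes.

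An imprinted gene is expressed mainly from the copy inherited from 1 parent, because DNA methylation laid down in the egg or sperm keeps the other copy silent. Most such genes lie in clusters under a shared control region, where paternally expressed genes, among them long noncoding RNAs that silence their neighbours, stand beside maternally expressed ones. Many act on fetal growth, on neuronal function or on hormone signalling, and for several genes the parental bias is restricted to brain, neurons or placenta. The libraries do not separate the parental alleles, so all values are total RNA of a gene. The labels paternal and maternal are textbook knowledge of the expressed copy, not measurements.

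Values are the authors' log2 values, which are relative to an Input level of each gene. They allow comparison between libraries and hold no expression level, so genes cannot be ranked by abundance, and the depth behind them is unknown. Log2 fold changes are the Positive mean minus the Input mean, with limma's moderated SE and the p-value adjusted over all 16422 genes. Library values are listed in the order of animals 12, 40 and 55 for Positive and 40 and 55 for Input. In these bulk libraries, more nuclei of a type and more RNA per nucleus cannot be told apart.

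Markers of Müller glia and of several other cell types were higher in the captured nuclei. All 12 Müller glia markers had a log2 fold change above 0, with a median of 0.45, and for 11 of them the lowest Positive library was above the higher Input library, against 16.7% of all genes. Mean values of the list were 0.33 to 0.65 in Positive and -0.05 to 0.06 in Input. Markers of endothelium (8 of 8 above 0, median 0.55), of mural cells (5 of 5, median 0.38), of pigment epithelium and choroid (5 of 7, median 0.75), of fibroblasts and meninges (7 of 8, median 0.46) and of astrocytes (3 of 4, median 0.70) lay mostly above 0 as well. Bipolar cell markers were all lower (6 of 6, median -0.36), and amacrine markers had a median of -0.08. Ganglion cell markers lay mostly above 0 (5 of 6, median 0.26), with horizontal cell markers at a median of 0.12, rod and cone markers at 0.02 each and microglia markers (4 of 6 above 0) at 0.25. Their part in the results below was not tested.

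Of the 37 imprinted genes, 21 had a log2 fold change above 0 and 16 below, with a median of 0.02 where all genes had a median of -0.02. Limma called 0 of the 37 at an adjusted p under 0.05, and their lowest adjusted p was 0.331. The test called 0 of all 16422 genes, which is 0% of them. At an unadjusted p under 0.05 there were 3 imprinted genes on the higher side (H19, Calcr and Ndn) and 2 on the lower side (Kcnk9 and Peg3), against 6.45% and 7.76% of all genes. H19 is in the table through 1 condition only, so its place on the higher side is no support. Positive exceeded Input in every pair of libraries for 11 of the 37 (29.7%), H19 among them, against 16.7% of all genes. The reverse held for 7 (18.9%), against 21.8% of all genes, a share close to the background.

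**Figure D1:**
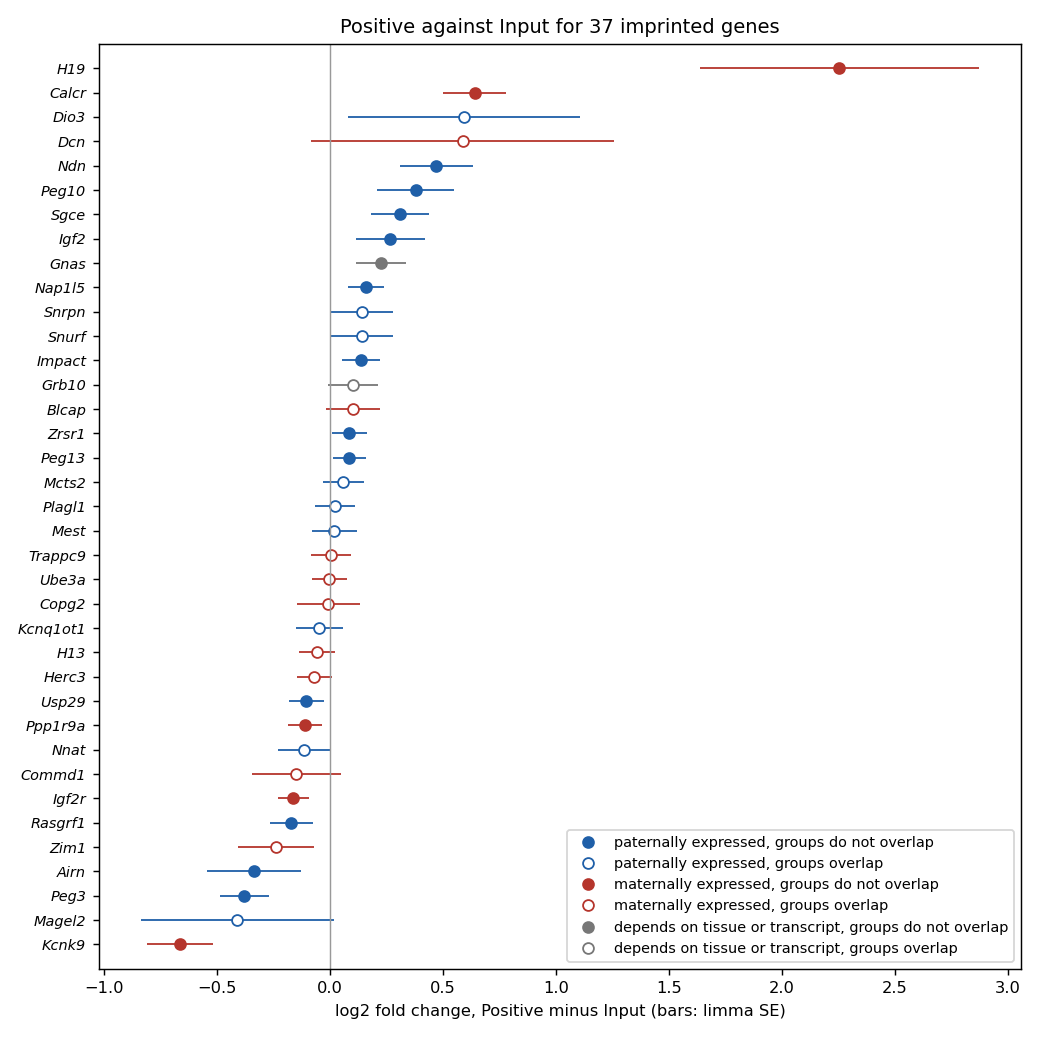
Log2 fold change of Positive over Input nuclei (x axis) for the 37 imprinted genes (y axis, sorted), with limma's SE as bars. Blue marks paternally expressed genes, red maternally expressed ones and grey Grb10 and Gnas, and filled points mark genes whose Positive and Input libraries do not overlap. H19 stands apart at 2.26 and Kcnk9 is lowest at -0.66.

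Set by the expressed parental copy, the paternally expressed genes had their median log2 fold change at 0.09, with 14 of 21 above 0, and the maternally expressed genes a median of -0.03, with 5 of 14 above 0. Over all genes 47% were above 0 and 53% below. The 3 Positive libraries all exceeded both Input libraries in 8 of the 21 paternally expressed genes (38.1%) and in 2 of the 14 maternally expressed ones (14.3%), against 16.7% of all genes. H19, which is in the table through 1 condition only, is 1 of these 2. They were all below both Input libraries in 4 paternally expressed genes (19.05%) and in 3 maternally expressed ones (21.4%), against 21.8% of all genes. Grb10 and Gnas, whose expressed copy depends on tissue or transcript, belong to neither class. Without genes of restricted or biased imprinting, 19 paternally expressed genes were left but only 2 maternally expressed ones, H19 and Zim1. Most of the maternal class is thus maternally expressed only in some tissues or as a bias. Which copies are expressed in these nuclei was not measured. The difference of the classes was not tested, since the genes were chosen with earlier results of these data known, and members overlap one another. After quantile normalization the paternal median was -0.0018 and the maternal median -0.03, where all genes had a median of -0.02, so the paternal median was no longer above 0 and lay closer to the maternal one.

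**Figure D2:**
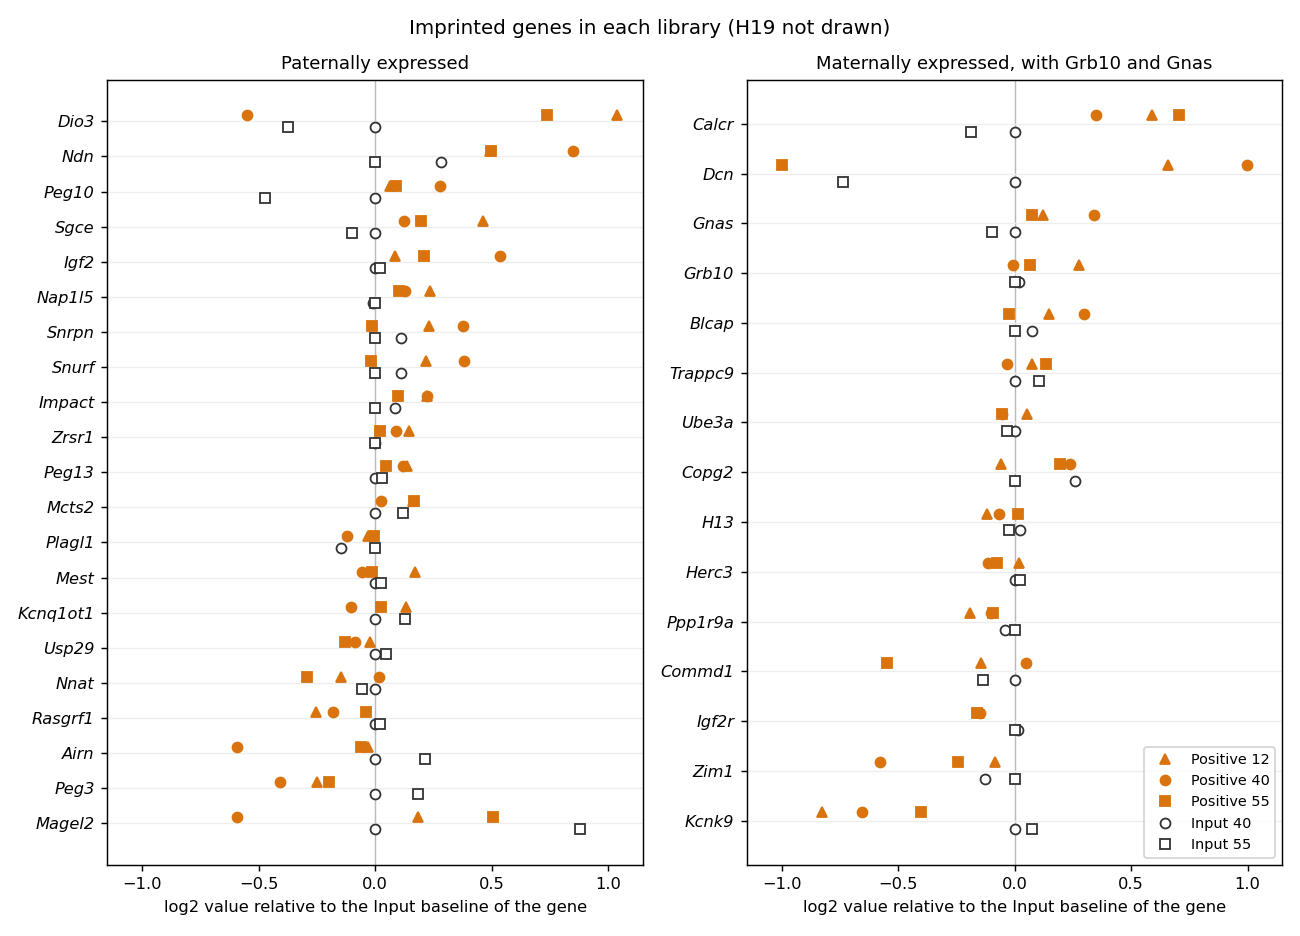
Log2 value of each imprinted gene in each library, relative to the Input baseline of that gene (x axis), for paternally expressed genes on the left and for maternally expressed genes with Grb10 and Gnas on the right. Filled orange symbols are the 3 Positive libraries and open symbols the 2 Input libraries, with 1 symbol shape per animal. H19 is left out because its values reach from -1.64 to 1.81, and wide scatter is visible in Dio3, Dcn and Magel2.

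The maternally expressed H19 and the paternally expressed Igf2 share 1 control region on chromosome 7, and for both genes the Positive values were all above the Input values. H19, a long noncoding RNA abundant in fetal tissue (mm10, chromosome 7, 142575532 to 142578146), had log2 values of 1.81, 1.80 and 0.70 in Positive nuclei, against -1.64 and 0.00 in Input nuclei. Its log2 fold change of 2.26 (4.77-fold, SE 0.62, limma adjusted p = 0.331) was the highest of the 37. The same difference was 3.44 within animal 40 and 0.70 within animal 55. H19 is the single one of the 37 that passed the authors' low-value filter in 1 condition only. Without the Input library of animal 40 the log2 fold change was 1.44, and without that of animal 55 it was 3.08. Igf2, the gene of a fetal growth factor (chromosome 7, 142650768 to 142661035), had log2 values of 0.08, 0.53 and 0.21 in Positive nuclei, against 0.00 and 0.02 in Input nuclei. The groups do not overlap, and Positive 40 stands highest. Its log2 fold change was 0.27 (SE 0.15, limma adjusted p = 0.441), and it was 0.14 without Positive 40 and 0.17 after quantile normalization. Its end overlaps the antisense gene Igf2as, whose log2 fold change was 0.45. Igf2 is expressed from both copies in the choroid plexus and meninges. The 8 measured fibroblast and meninges markers had means of 0.46, -0.21 and 0.25 in Positive nuclei, against -0.62 and -0.12 in Input nuclei, which overlap. Positive 40 was the lowest Positive library for this list and the highest for Igf2. A link between the list and Igf2 was not tested.

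Igf2r, the maternally expressed gene of the receptor that carries IGF2 to the lysosome for degradation (chromosome 17, 12682406 to 12769706), lay on the other side. It had log2 values of -0.15, -0.15 and -0.16 in Positive nuclei, against 0.01 and 0.00 in Input nuclei. These are the closest replicates of the 37 genes, with a residual SD of 0.0082, and the log2 fold change was -0.16 (SE 0.07, limma adjusted p = 0.363). Airn, the paternally expressed noncoding RNA that overlaps Igf2r on the opposite strand and silences it in cis, had log2 values of -0.03, -0.60 and -0.06 in Positive nuclei, against 0.00 and 0.21 in Input nuclei. All Positive values were below both Input values, and Positive 40 was far below the others. The log2 fold change of Airn was -0.34 (SE 0.21, limma adjusted p = 0.471), and -0.15 without Positive 40. The 2 genes share 28396 bases, where their reads could be told apart only by strand, and whether counting used strand is not given. Grb10, an adaptor that dampens insulin and IGF receptor signalling, had a fold change on the log2 scale of 0.10 (SE 0.11), with overlapping groups. Plagl1, a paternally expressed zinc finger regulator of the imprinted growth genes, had 0.02 (SE 0.09), also with overlapping groups.

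The Peg10 cluster on chromosome 6 held 3 genes on the higher side and 1 on the lower side. Calcr, the calcitonin receptor gene, maternally expressed in brain (3685720 to 3764713), had log2 values of 0.59, 0.35 and 0.71 in Positive nuclei, against 0.00 and -0.19 in Input nuclei. Its log2 fold change was 0.64 (1.56-fold, SE 0.14, limma adjusted p = 0.331), and it was 0.55 to 0.74 when any 1 library was left out. In all 3 animals Calcr was higher in Positive nuclei, by 0.35 within animal 40, by 0.89 within animal 55 and by 0.68 in animal 12 against the Input mean. Peg10, a gene derived from a retrotransposon, and Sgce, which encodes epsilon-sarcoglycan, are paternally expressed from starts 102 bases apart on opposite strands. Peg10 had log2 values of 0.06, 0.28 and 0.09 in Positive nuclei, against 0.00 and -0.47 in Input nuclei, a log2 fold change of 0.38 (SE 0.17, limma adjusted p = 0.377). It was 0.14 without the Input library of animal 55, which is the low one, and 0.62 without that of animal 40. Sgce had log2 values of 0.46, 0.12 and 0.20 in Positive nuclei, against 0.00 and -0.10 in Input nuclei, a log2 fold change of 0.31 (SE 0.13, limma adjusted p = 0.362). For neither gene do the groups overlap. Ppp1r9a, a maternally expressed gene which encodes the synaptic actin scaffold neurabin, had log2 values of -0.19, -0.10 and -0.09 in Positive nuclei, against -0.04 and 0.00 in Input nuclei. The groups do not overlap, though the log2 fold change was -0.11 (SE 0.08, limma adjusted p = 0.516) and 0.017 after quantile normalization.

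In the Peg3 cluster of chromosome 7 all 3 measured genes were below 0. Peg3, a paternally expressed zinc finger transcription factor gene with high expression in neurons (6705960 to 6730419), had log2 values of -0.25, -0.41 and -0.20 in Positive nuclei, against 0.00 and 0.18 in Input nuclei. Its log2 fold change was -0.38 (SE 0.11, limma adjusted p = 0.331), and the difference was -0.41 within animal 40 and -0.38 within animal 55. Usp29, a paternally expressed gene of the deubiquitinase family that is transcribed away from Peg3 from a start 322 bases off in the deposited coordinates, had log2 values of -0.02, -0.09 and -0.13 in Positive nuclei, against 0.00 and 0.05 in Input nuclei. Its groups do not overlap, with a log2 fold change of -0.10 (SE 0.08, limma adjusted p = 0.533). The maternally expressed zinc finger gene Zim1 had log2 values of -0.08, -0.58 and -0.24 in Positive nuclei, against -0.13 and 0.00 in Input nuclei. Its groups overlap, and the log2 fold change was -0.24 (SE 0.17, limma adjusted p = 0.516). It was -0.10 without Positive 40 and -0.098 after quantile normalization.

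The lowest fold change of the 37 belonged to Kcnk9, a background potassium channel gene of neurons that is maternally expressed in brain (chromosome 15, 72512119 to 72546279). It had log2 values of -0.83, -0.65 and -0.40 in Positive nuclei, against 0.00 and 0.07 in Input nuclei. All Positive values were well below both Input libraries, and the log2 fold change was -0.66 (0.632-fold, SE 0.14, limma adjusted p = 0.331), with -0.78 to -0.56 when any 1 library was left out. Its neighbours in the same cluster had smaller differences. Trappc9, a maternally expressed trafficking complex subunit gene, stood at 0.0053 (log2 fold change, SE 0.09), with overlapping groups. Peg13, a paternally expressed noncoding RNA inside Trappc9, had log2 values of 0.14, 0.12 and 0.04 in Positive nuclei, against 0.00 and 0.03 in Input nuclei, a log2 fold change of 0.09 (SE 0.07, limma adjusted p = 0.585) with groups that do not overlap. After quantile normalization it was 0.025. Rasgrf1, an activator of Ras that is paternally expressed in brain, was also on the lower side. Its log2 values were -0.26, -0.18 and -0.04 in Positive nuclei, against 0.00 and 0.02 in Input nuclei, with a log2 fold change of -0.17 (SE 0.09, limma adjusted p = 0.433). Among neuronal lists, bipolar cell markers had means of -0.27 to -0.19 in Positive and -0.0041 to 0.08 in Input, while ganglion cell markers had means of 0.08 to 0.29 in Positive and -0.05 to -0.01 in Input.

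The Prader-Willi and Angelman region of chromosome 7 was divided. The paternally expressed Ndn encodes necdin, a growth-restraining protein of neurons (62348277 to 62349927). It had log2 values of 0.49, 0.85 and 0.50 in Positive nuclei, against 0.28 and 0.00 in Input nuclei. The groups do not overlap, and the log2 fold change was 0.47 (1.39-fold, SE 0.16, limma adjusted p = 0.338), or 0.18 after quantile normalization. Its near relative Magel2, a cofactor of a ubiquitin ligase, had log2 values of 0.18, -0.59 and 0.50 in Positive nuclei, against 0.00 and 0.88 in Input nuclei. The libraries of animal 55 were the highest of each group, the groups overlap, and the log2 fold change of -0.41 (SE 0.43, limma adjusted p = 0.654) was 0.031 without the Input library of animal 55 and -0.85 without that of animal 40. Magel2 and Snrpn are paternally expressed too. Snrpn, which encodes a splicing protein of neurons, had log2 values of 0.23, 0.38 and -0.01 in Positive nuclei, against 0.11 and 0.00 in Input nuclei. The log2 fold change was 0.14 (SE 0.14, limma adjusted p = 0.629) with overlapping groups, and -0.0018 after quantile normalization. Snurf is read from the same transcripts, and its values differed from those of Snrpn by at most 0.012 in any library. The pair is in effect 1 measurement, though both genes are in the counts given here. The log2 fold change of Snurf was 0.14 also. Ube3a, the ubiquitin ligase gene that is maternally expressed in neurons, showed the smallest difference of the region. It had log2 values of 0.06, -0.06 and -0.06 in Positive nuclei, against 0.00 and -0.03 in Input nuclei, with a log2 fold change of -0.0012 (SE 0.08).

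At 5 places a paternally expressed gene lies inside a maternally expressed host. Nap1l5, Zrsr1, Mcts2 and Nnat are short genes of this kind with a promoter of their own, and Peg13 is a noncoding RNA. In 4 of the 5 the inner gene had the higher log2 fold change of the pair, and in Nnat the lower. Peg13 and Mcts2 lie on the strand of their hosts, so strand cannot tell the reads of these pairs apart. For Nap1l5, Zrsr1 and Nnat only strand could, and whether counting used strand is not given. The promoter windows of Nap1l5, Zrsr1 and Mcts2, which arose as retrocopies, are shown with that of Peg3 because they are the windows before the start of the expressed paternal copy, and they were taken from RefSeq (GRCm38.p6) as the 250 bases before each start, on the gene's strand. They are chr6:58907127-58907376 on the minus strand, chr11:22971755-22972004 on the plus strand, chr2:152686898-152687147 on the plus strand and chr7:6730420-6730669 on the minus strand. Capitals mark TGCCGC, the core letters bound by the imprint-keeping zinc finger protein ZFP57, searched on both strands.
Nap1l5: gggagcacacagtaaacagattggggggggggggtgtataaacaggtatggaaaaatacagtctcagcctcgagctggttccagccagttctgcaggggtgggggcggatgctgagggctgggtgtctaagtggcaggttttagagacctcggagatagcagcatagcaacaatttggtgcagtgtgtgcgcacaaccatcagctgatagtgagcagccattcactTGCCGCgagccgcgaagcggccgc
Zrsr1: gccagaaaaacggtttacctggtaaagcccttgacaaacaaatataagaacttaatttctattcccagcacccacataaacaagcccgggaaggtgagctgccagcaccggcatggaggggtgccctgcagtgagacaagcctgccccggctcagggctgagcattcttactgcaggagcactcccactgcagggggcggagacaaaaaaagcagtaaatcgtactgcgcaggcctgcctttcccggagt
Mcts2: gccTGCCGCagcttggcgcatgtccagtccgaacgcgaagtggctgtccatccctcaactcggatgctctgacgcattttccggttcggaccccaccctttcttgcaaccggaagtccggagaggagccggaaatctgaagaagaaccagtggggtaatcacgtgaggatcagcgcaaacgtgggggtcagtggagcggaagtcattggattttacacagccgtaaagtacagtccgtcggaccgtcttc
Peg3: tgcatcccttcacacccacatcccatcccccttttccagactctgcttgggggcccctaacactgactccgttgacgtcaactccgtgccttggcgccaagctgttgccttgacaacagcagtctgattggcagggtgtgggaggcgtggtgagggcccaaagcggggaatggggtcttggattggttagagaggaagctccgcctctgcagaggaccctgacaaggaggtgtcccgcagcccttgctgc
The motif occurs 1 time in the windows of Nap1l5 and Mcts2 and is not in those of Zrsr1 and Peg3. RefSeq promoter sequences were at hand for 29 of the 37 genes, in 44 windows, some of which overlap or repeat. TGCCGC was in 8 of the 44 windows (18.2%) and in 8.68% of 32851 windows of all genes. By gene it was in 7 of the 29 (24.1%) and in 9.84% of all genes. The windows of the imprinted genes held a median of 12.5 CG pairs, and those of all genes a median of 6, and the part of CG content in this share was not tested. The core letters of YY1, GCCATNTT on both strands, were in 1 of the 44 windows, that of Ube3a, and in 3.91% of all windows.

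Nap1l5, a nucleosome assembly protein-like gene, lies inside Herc3, a ubiquitin ligase gene, on the opposite strand. Nap1l5 had log2 values of 0.23, 0.13 and 0.10 in Positive nuclei, against -0.01 and 0.00 in Input nuclei, and Herc3 had 0.02, -0.11 and -0.07 in Positive nuclei, against 0.00 and 0.02 in Input nuclei. The value of Nap1l5 minus that of Herc3 was 0.21, 0.24 and 0.18 in Positive nuclei, against -0.01 and -0.02 in Input nuclei. The log2 fold change was 0.16 for Nap1l5, whose groups do not overlap (SE 0.08, limma adjusted p = 0.404), and -0.07 (SE 0.08) for Herc3, whose groups do. Their difference is the tightest of those above 0, with 0.21 to 0.26 over 10 alternative settings. It kept its sign in 10 of 10, as did the difference of every other nested pair with a maternally expressed host, so this is not particular to Nap1l5. Nnat, a membrane proteolipid gene of neurons and endocrine cells inside Blcap, went the other way. Nnat minus Blcap was -0.30, -0.28 and -0.27 in Positive nuclei, against -0.08 and -0.06 in Input nuclei, with a log2 fold change of -0.11 (SE 0.11) for Nnat and of 0.10 (SE 0.12) for Blcap. After quantile normalization the difference of the 2 fold changes was -0.0026, where it was -0.21 in the deposited values. Neither gene alone had separate groups, whereas the difference of the pair did, and the spread of that difference within Positive was 0.015 (SD, n = 3). Of all single genes, 38.5% had separate groups in either direction. The share among pairs of other genes was not computed, so separation in a pair is no support.

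Zrsr1, a splicing factor gene inside the copper and NF-kappaB regulator gene Commd1, had log2 values of 0.14, 0.09 and 0.02 in Positive nuclei, against 0.00 and -0.0026 in Input nuclei, which do not overlap, with a log2 fold change of 0.09 (SE 0.08, limma adjusted p = 0.596). Commd1 had -0.15, 0.05 and -0.55 in Positive nuclei, against 0.00 and -0.13 in Input nuclei, with overlapping groups and a log2 fold change of -0.15 (SE 0.20). Zrsr1 minus Commd1 was 0.29, 0.04 and 0.57 in Positive nuclei, against 0.00 and 0.13 in Input nuclei, which overlap. Mcts2, a retrocopy of a translation factor gene, reached 0.06 as its log2 fold change (SE 0.09), and its host H13, the signal peptide peptidase gene, had -0.06 (SE 0.08). Mcts2 minus H13 was 0.28, 0.09 and 0.15 in Positive nuclei, against -0.02 and 0.14 in Input nuclei, which overlap. The differences of the pairs were not tested.

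**Figure D3:**
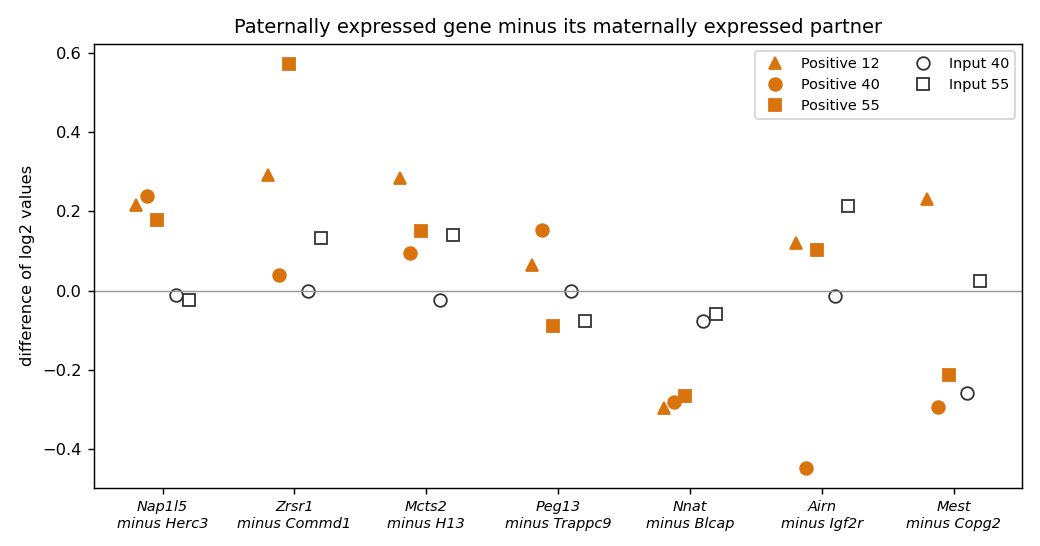
Log2 value of a paternally expressed gene minus that of its maternally expressed partner (y axis) for 7 neighbouring or nested pairs (x axis), in each library. Filled orange symbols are Positive and open symbols Input libraries. Positive and Input are separate for Nap1l5 with Herc3 and for Nnat with Blcap, and overlap in the other pairs. Of all single genes, 38.5% had separate groups, and the share among other pairs was not computed.

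Mest, a hydrolase-like gene, and Copg2, a coatomer subunit gene next to it, had log2 fold changes of 0.02 (SE 0.10) and -0.0055 (SE 0.14), with overlapping groups in both. Mest is paternally and Copg2 maternally expressed. Kcnq1ot1, the noncoding RNA that silences its cluster on the paternal copy, had log2 values of 0.13, -0.10 and 0.03 in Positive nuclei, against 0.00 and 0.13 in Input nuclei. It lies inside the potassium channel gene Kcnq1 on the opposite strand. Kcnq1 had log2 values of 0.60, 1.28 and 0.91 in Positive nuclei, against -0.57 and 0.00 in Input nuclei, after passing the low-value filter in 1 condition only. The log2 fold change was -0.05 (SE 0.10) for Kcnq1ot1 and 1.22 for Kcnq1, and the inner gene minus the host was -0.47, -1.38 and -0.89 in Positive nuclei, against 0.57 and 0.13 in Input nuclei.

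Impact, a paternally expressed inhibitor of the GCN2 stress kinase pathway with strong expression in neurons, had log2 values of 0.22, 0.22 and 0.10 in Positive nuclei, against 0.09 and 0.00 in Input nuclei. The groups are separate by a narrow margin, with a log2 fold change of 0.14 (SE 0.08, limma adjusted p = 0.459), and 0.01 after quantile normalization. Gnas, the gene of the stimulatory G protein subunit, had log2 values of 0.12, 0.34 and 0.07 in Positive nuclei, against 0.00 and -0.10 in Input nuclei. Its log2 fold change was 0.23 (SE 0.11, limma adjusted p = 0.402) and 0.15 without Positive 40, and its several promoters, which differ in imprinting, are summed in 1 value. Gnas, Usp29, Airn and Ube3a also overlap genes of the opposite strand (Nespas, Zim3, Mas1 and A230073K19Rik), with the same limit on telling their reads apart. Dio3, the paternally expressed gene of the deiodinase that inactivates thyroid hormone, had log2 values of 1.04, -0.55 and 0.74 in Positive nuclei, against 0.00 and -0.37 in Input nuclei. The groups overlap because Positive 40 is the lowest library of all, and the log2 fold change of 0.60 had an SE of 0.51 (limma adjusted p = 0.588). It was 0.28 without Positive 12 and 1.07 without Positive 40. Dcn encodes decorin, a matrix proteoglycan of fibroblasts, and is maternally expressed in placenta. It had log2 values of 0.66, 0.9985 and -0.9982 in Positive nuclei, against 0.00 and -0.74 in Input nuclei. Both libraries of animal 55 were lower than the others, and the log2 fold change was 0.59 (SE 0.67, limma adjusted p = 0.680). Without Positive 55 it was 1.20, and without Positive 40 it was 0.20.

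Scatter between libraries was uneven among the imprinted genes. The residual SD was 0.92 for Dcn, 0.85 for H19, 0.71 for Dio3 and 0.58 for Magel2, where the median of the 37 was 0.12 and that of all genes 0.13. Genes were also compared within animals, with animal 12 set against the Input mean. Of the 37 genes, 12 (32.4%) were higher in Positive in all 3 animals, against 25.4% of all genes. H19, which is in the table through 1 condition only, is among the 12. Lower in all 3 were 9 (24.3%), against 31% of all genes.

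**Figure D4:**
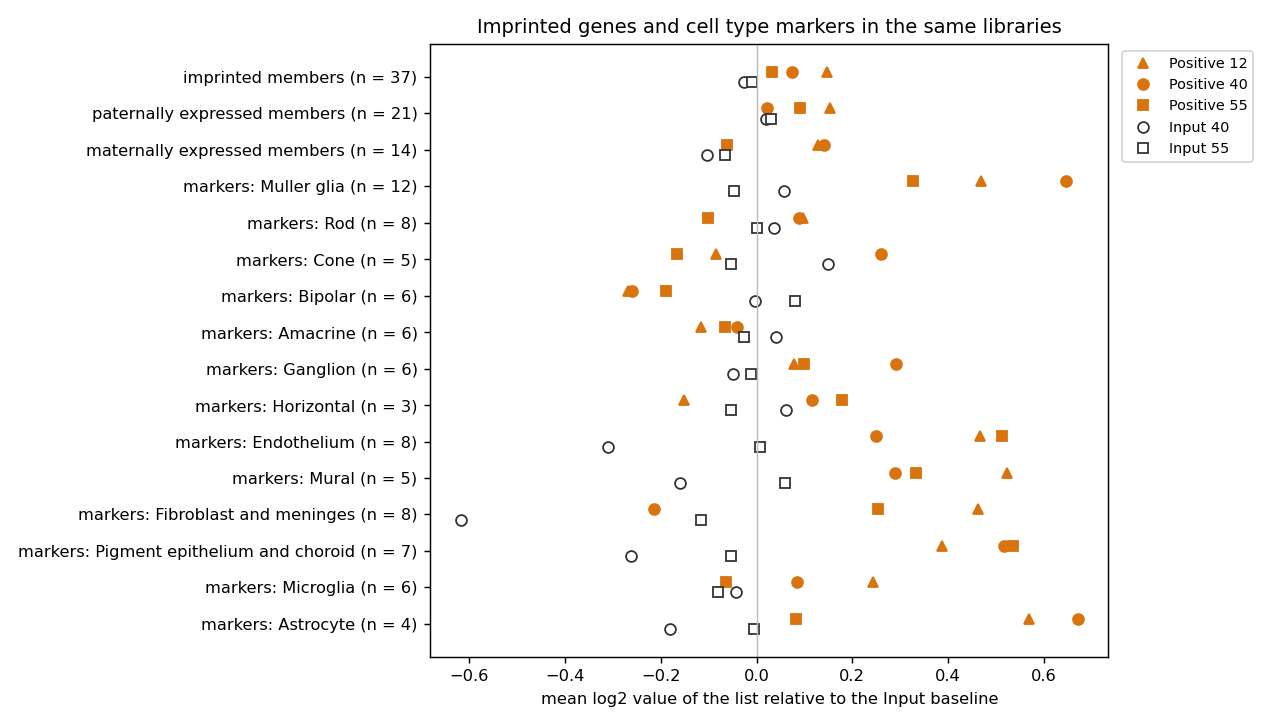
Mean log2 value, relative to the Input baseline, of the imprinted genes and of cell type marker lists (y axis, with the number of genes) in each library (x axis). Filled orange symbols are Positive and open symbols Input libraries. The imprinted genes lie at 0.03 to 0.15 in Positive and -0.03 to -0.01 in Input, a smaller gap than that of the Müller glia, endothelial and pigment epithelium markers. These means include H19, which is in the table through 1 condition only and reaches from -1.64 to 1.81, so their gap is no support. The medians of the 37 were 0.12, 0.02 and 0.02 in Positive 12, 40 and 55 and 0 in each Input library.

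Further genes reported as imprinted in the mouse were fitted in the same model. Of a list of 50, 38 were measured, with 22 above 0, 16 below and a median log2 fold change of 0.05, and limma called 0 of them. Positive values were all above Input values in 13 (34.2%) and below both in 5 (13.2%), against 16.7% and 21.8% of all genes. The 38 include 3 genes that passed the low-value filter in 1 condition only. Kcnq1 is such a gene and is among the 13, so its place there is no support. The highest among those that passed the filter in both conditions were Pon3, a lactonase gene, at 1.16 (SE 0.55), Peg12 of the Prader-Willi region at 1.08 (SE 0.36) and Ddc, the dopa decarboxylase gene, at 0.83 (SE 0.37). The lowest were the phosphodiesterase gene Pde10a at -0.59 (SE 0.39), the tyrosine hydroxylase gene Th at -0.36 (SE 0.37) and the adhesion gene Cntn3 at -0.36 (SE 0.12). Th marks dopaminergic amacrine cells in the retina. Without Positive 12 the log2 fold change was 0.72 for Pon3, -0.22 for Pde10a and -0.07 for Th, and without the Input library of animal 55 it was 0.66 for Peg12 and -0.05 for Th.

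The genes that keep, read or remove the marks of imprinted regions lay mostly on the lower side. All 33 of the list were measured, 10 above 0 and 23 below, with a median of -0.06, and limma called 0 of them. Positive values were all below Input values in 11 (33.3%), against 21.8% of all genes, and above both in 1 (3.03%), against 16.7%. The list includes 2 genes that passed the low-value filter in 1 condition only, Dnmt3l and Dppa3. Dnmt3l, at -0.24, is among the 11, and its place there is no support. Zfp57, which guards methylation at imprinted control regions, was lowest at -0.47 (SE 0.16, limma adjusted p = 0.338). Its log2 values were -0.32, -0.49 and -0.12 in Positive nuclei, against 0.00 and 0.31 in Input nuclei, with no overlap. Among the genes that passed the filter in both conditions, the histone methyltransferase genes Ehmt2 at -0.28 (SE 0.12) and Setdb1 at -0.22 (SE 0.08) followed. The highest were Uhrf1, which brings the maintenance methyltransferase to replicated DNA, at 0.43 (SE 0.44), the cohesin gene Rad21 at 0.12 (SE 0.09) and the CTCF paralogue gene Ctcfl at 0.11 (SE 0.23). Uhrf1 and Ctcfl rest on the low Input library of animal 55, without which their log2 fold changes were -0.22 and -0.13.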

How the data were processed

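Nuclear RNA of retina was sequenced from 3 Positive and 2 Input samples, grouped by the labelled fraction. The authors deposited 1 table of log2 values with 16423 rows, normalized and set relative to an Input level of each gene, and in 16029 genes at least 1 Input library is exactly 0. RefSeq gene models were used, per the file headers, and rows were kept if all libraries of 1 condition or both reached a raw value of 5. The submitters' processing notes name mm10 as the build and DESeq as a tool. The aligner, the counter and the versions are not given in these sources. The depth per sample is unknown, so no counting interval is given. The table's column of conditions passed (1 or 2) was used as deposited by the authors.

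The comparison of Positive over Input used limma 3.58.1 (R 4.3.3) and all 16422 genes (1 row per symbol), without further normalization, with 3 residual degrees of freedom, two-sided, with Benjamini-Hochberg adjustment over all genes and a threshold of 0.05. The code was tested on simulated data. Coordinates are those of the deposited table, and all 37 genes overlapped their RefSeq gene of GRCm38.p6, matched by Entrez number.

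The members and lists were chosen with earlier results of these data known. Values in every library are given for genes whose groups do not overlap, for the 5 highest and 5 lowest fold changes and for some neighbours, and from the other lists values are given for the 3 highest and 3 lowest that passed the filter in both conditions. Kcnq1 and the overlapping genes of no list were named after their values were seen.

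The labels give each library an animal number, which pairs Positive and Input of animals 40 and 55. The deviations of paired libraries from their group means correlated at r = 0.174 (animal 40) and r = 0.195 (animal 55) across genes, which are not independent replicates. With 2 Input libraries the Input deviations are equal and opposite, so the 2 correlations are not separate checks. The fit with the animal as a random block used a consensus correlation of 0.514. Alternatives were 2 other scalings, the animal as a fixed or random block, a mean-variance trend, a stricter filter, each library left out and narrower classes.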

Additional observations from a re-analysis of the deposited data

How the results depend on the processing

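With 5 libraries of unknown depth, no single imprinted gene passed the test at any setting that kept both Input libraries. The lowest adjusted p in limma was 0.111 (random replicate block), a minimum that leaves out the mean-variance trend setting. A random replicate block for the animal raised the calls over all genes to 11, of which 0 were imprinted genes, against 0 without a block and 0 with the fixed block. The genes at an unadjusted p under 0.05 numbered 2334, with 1264 after quantile normalization, 4305 with the random replicate block and 930 to 3188 with 1 library left out (930 without Input 55, 1319 without Input 40, 1446 without Positive 40). The paternal median of 0.09 was -0.0018 after quantile normalization and 0.14 without genes that overlap the other class, a setting added after the data were seen. With 1 library left out it ran from 0.057 (Positive 12) to 0.114 (Positive 55). The maternal median of -0.03 was -0.0034 without genes that overlap the other class, the same added setting. It was 1.009 in the 2 genes left without restricted or biased imprinting, H19 (2.26) and Zim1 (-0.24). H19 is in the table through 1 condition only, so this value is no support. With 1 library left out the maternal median ran from -0.068 to -0.032, the lowest without Input 55. The median of the further imprinted genes, 0.05, was 0.018 after quantile normalization, 0.031 with the fixed and 0.025 with the random replicate block, and 0.025 to 0.049 with 1 library left out, the lowest without Input 40. The median of the imprint-keeping genes was -0.11 (without Input 40) to -0.022 (without Positive 55) with 1 library left out.

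Of the 37 imprinted genes, 24 kept their sign at every setting run and 13 did not, in 30 of 369 values. After quantile normalization the sign turned for Trappc9 (-0.038), Snrpn (-0.0018), Snurf (-0.0035), Ube3a (0.0735), Mest (-0.013), Blcap (-0.019), Mcts2 (-0.0085) and Ppp1r9a (0.017). With each library's median set to 0 it turned for Ube3a (0.016) and Copg2 (0.012). With the fixed replicate block it turned for Trappc9 (-0.0028), Mest (-0.049) and Copg2 (0.086), and with the random replicate block for Mest (-0.015) and Copg2 (0.042). Of the 12 genes named from the other lists, Ctcfl was -0.043 with the fixed replicate block and -0.13 to 0.35 with 1 library left out, and Uhrf1 was -0.22 to 1.08. With 1 library left out the log2 fold change ran from -0.047 to 0.058 for Trappc9, from -0.85 to 0.031 for Magel2, from -0.038 to 0.017 for Ube3a, from -0.053 to 0.096 for Plagl1, from -0.049 to 0.065 for Mest, from -0.14 to 0.12 for Copg2, from -0.11 to 0.018 for Kcnq1ot1 and from -0.28 to 0.020 for Commd1. The cause of these turns was not tested.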

Other observations

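The other genes within 500 kb were set beside the members for 11 groups of neighbouring imprinted genes, a comparison chosen after the values of the members were seen. Only the 37 members were left out of the other genes, which can therefore include further genes reported as imprinted. Zim3, which overlaps Usp29 in the Peg3 cluster, is such a gene. The comparison is thus not one of imprinted against other genes. Genes that did not pass the low-value filter in both conditions were not left out either. The counts and medians below can therefore rest in part on such genes and on further imprinted genes. Around the Peg3 cluster, where all 3 imprinted genes were below 0, the 16 other measured genes were divided, with 8 above 0, 8 below and a median log2 fold change of -0.03. Around the Peg10 cluster, 10 of 13 other genes were above 0 with a median of 0.17, and 7 of the 13 had all Positive values above both Input values, against 16.7% of all genes. Around H19 and Igf2, 10 of 16 other genes were above 0, with a median of 0.18. Around the region of Snrpn, Ndn, Magel2 and Ube3a, 9 of 12 other genes were below 0, with a median of -0.25. Around Igf2r and Airn, which were both below 0, 10 of 14 other genes were below 0, with a median of -0.03. Around H13 and Mcts2, 9 of 21 were above 0, with a median of -0.05, and 7 of the 21 had all Positive values below both Input values, against 21.8% of all genes. Around Mest and Copg2, 6 of 9 were above 0, with a median of 0.09. Around Blcap and Nnat, 7 of 11 were above 0, with a median of 0.03. Around Commd1 and Zrsr1, 2 of 6 were above 0, with a median of -0.02. The Trappc9 and Herc3 groups had 4 other genes each, 2 above 0 and 2 below.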
